A study of Homo sapiens with 12 samples.

Results

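The 45 genes described here encode the mTOR complexes, the proteins that report nutrients and growth factors to them, and a few of their best known effectors. They were chosen by gene symbol and matched to Ensembl identifiers, and all 45 were found among the 58302 gene identifiers of the count table and had enough reads to be among the 15826 genes tested. RNA-seq comprised 4 libraries of oral squamous cell carcinoma (OSCC) cells, 2 treated with 100 nM rapamycin and 2 untreated controls. MeRIP-seq, in which RNA fragments carrying N6-methyladenosine (m6A) are pulled down with an antibody and sequenced beside the input RNA, comprised 8 libraries, 1 pulled-down and 1 input library for each of the cell lines HSC3 and CAL33, with 100 nM rapamycin for 3 days or without it. HSC3 and CAL33 are established human OSCC lines.

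mTOR is a kinase that works in a pair of complexes. In mTORC1 it is held by RPTOR and drives protein synthesis and restrains autophagy, while in mTORC2, built on RICTOR, it phosphorylates AKT and SGK1. Amino acids act through the Rag GTPases, which bring mTORC1 to the lysosome, and growth factors act through PI3K, AKT and the TSC complex, which holds the mTOR activator RHEB in check. Rapamycin inhibits mTORC1 by binding the small protein FKBP1A (FKBP12), and the pair then docks on mTOR. Most of this regulation acts on proteins, and the mRNA and m6A values given here do not measure the activity of the complexes.

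Total counts ranged from 18492273 to 23763098 per RNA-seq library. The sample labels give HSC3 for both rapamycin libraries and CAL33 for both controls, whereas in the m6A libraries number 1 marks HSC3 and number 2 marks CAL33. The counts went against the RNA-seq cell line labels. Same-numbered libraries correlated at 0.966 and 0.956 (Pearson r of log2 CPM across tested genes, which are not independent replicates), and the other pairs of libraries at 0.761 to 0.811. Of 357 genes with m6A peaks in both HSC3 lists and neither CAL33 list, 218 were higher in number 1 in both treatments and 74 were higher in number 2, while of 189 genes with the reverse listing 56 and 105 were. The libraries are therefore called by treatment and number, and rapamycin was compared with control within numbers, with the number as a block. If the cell line labels were right, treatment and cell line could not be told apart. The epithelial markers EPCAM, CDH1 and SFN were at 157 to 673 CPM in every library. With rapamycin and in control, *KRT5* was at 6.10 and 34.2 CPM in number 1 against 327 and 1703 in number 2. In the same order, *KRT17* was at 5.05 and 4.89 against 2119 and 1346, and *TP63* at 13.5 and 19.7 against 353 and 332. *KRT6A* was at 0.421 and 4.39 against 5.38 and 374. *KRT14* had 0 counts in number 1 and was at 1.26 and 9.34 CPM in number 2. *KRT5* and *KRT6A* were thus lower with rapamycin in both numbers. The immune markers, *PTPRC* among them at 0 counts, summed to at most 0.316 CPM. Fibroblast markers summed to 8.79 to 46.7 CPM, with *COL1A2* and *DCN* at 0 counts and *PDGFRB* above 0 in number 1 only (14.8 and 10.3 CPM), and endothelial markers to 1.42 to 45.4 CPM, mostly *CDH5* in number 2 (41.6 and 25.6 CPM). The part of these markers in the results was not tested.

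Because many members work at the lysosome, their promoters were searched for a short element of lysosomal genes. The sequence GTCACGTG, read on either strand, is the core of the CLEAR element bound by TFEB and its relatives, transcription factors of lysosomal genes that mTORC1 keeps out of the nucleus. It was looked for from 250 bases before to 50 bases after each annotated start in RefSeq (GRCh38.p14). Of the 39 members with such a window, 4 (10.3%) held it, against 2.93% of all 27305 genes. The shorter CACGTG, which it contains, was found in 8 members (20.5%) and in 8.77% of all genes. The 27305 genes include genes that were not tested here, while all members were tested, so the shares are not like for like. A match describes these letters only. The 4 matches are shown with 11 bases on each side, 5′ to 3′ on the strand of the gene, with the element in capitals.
*RRAGC*, chr1:38859866-38859895, minus strand: ggtgattccggCACGTGACggggcaccacc
*FNIP1*, chr5:131797174-131797203, minus strand: cccgcccctgcCACGTGACgggacccgcca
*LAMTOR4*, chr7:100148893-100148922, plus strand: gcggctgcaagCACGTGACcggggcctgaa
*TSC2*, chr16:2047858-2047887, plus strand: catgcggccccGTCACGTGatgcaaggatc

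With rapamycin, the mRNA of *PDCD4* and *GRB10* rose and that of *AKT1S1* fell, and no other member passed the threshold. An adjusted p under 0.05 among all tested genes (edgeR's quasi-likelihood test with the number as a block, Benjamini-Hochberg adjustment) was thus reached by 2 of 45 members upward, where 4.65% of all tested genes were, and by 1 downward, where 3.50% were. The members' share was near the background in both directions. Over all genes, 736 were higher and 554 lower, and with upper-quartile scaling 805 and 360. Without the block, the test called 0 members and 0.00% of all genes, with 1 member and 446 genes at an unadjusted p under 0.05 (8 members with the block), and DESeq2 without the block called 1 member, *PDCD4*. With the block, the p-values set the mean shift with rapamycin against the spread between the numbered pairs in their response, moderated across genes. The difference between numbers is taken out. The labels do not say that the libraries came from separate cultures, so whether this spread covers separate cultures is unknown. In bulk RNA a change in the mix of cells and a change of RNA per cell cannot be told apart.

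*PDCD4* encodes an inhibitor of the translation helicase eIF4A that S6 kinase marks for destruction. Its mRNA (chromosome 10, 110871928 to 110900006, GRCh38.p14) was 51.7 and 55.5 CPM (counts over library size with TMM factors) in rapamycin libraries 1 and 2, against 14.1 and 18.8 CPM in controls 1 and 2. Both rapamycin libraries lay well above both controls. The means were 53.6 ± 2.63 and 16.4 ± 3.30 CPM (SD, n = 2 each). The fitted difference was 3.29-fold, with a log2 fold change of 1.72 (standard error 0.30, adjusted p = 0.00141).

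*GRB10* encodes an adaptor that dampens insulin receptor signalling and whose protein mTORC1 stabilizes. The transcript (chromosome 7, 50590068 to 50793453) stood at 36.3 CPM in both rapamycin libraries and at 7.85 and 21.5 CPM in controls 1 and 2. The rapamycin libraries were almost equal and the controls were not. The fit put the log2 fold change at 1.47 (standard error 0.36, adjusted p = 0.0159), a 2.77-fold difference, and the log2 difference was 2.19 within number 1 and 0.75 within number 2. With either number 2 library left out the fitted value was 2.21, and with either number 1 library left out it was 0.756, values that carry no test.

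*AKT1S1* encodes PRAS40, a subunit of mTORC1 that inhibits it until AKT and mTORC1 phosphorylate it. Its mRNA (chromosome 19, 49869033 to 49878356) was 123 and 49.0 CPM with rapamycin and 249 and 96.9 CPM in controls 1 and 2. Number 1 was higher than number 2 in both treatments, so the groups overlapped, but within each number the level was lower with rapamycin. The log2 difference was −1.02 in number 1 and −0.98 in number 2. The fit gave a log2 fold change of −1.0003 (standard error 0.25, adjusted p = 0.0159). In RefSeq *AKT1S1* shares 655 bases with *TBC1D17*, which held 439 to 743 counts per library and had a log2 fold change of −0.05, and *PDCD4* shares 1277 bases with *BBIP1* (145 to 211 counts per library, log2 fold change −0.07). The library kit keeps strand, but whether counting used it is not stated in the sources used here.

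**Figure D1:**
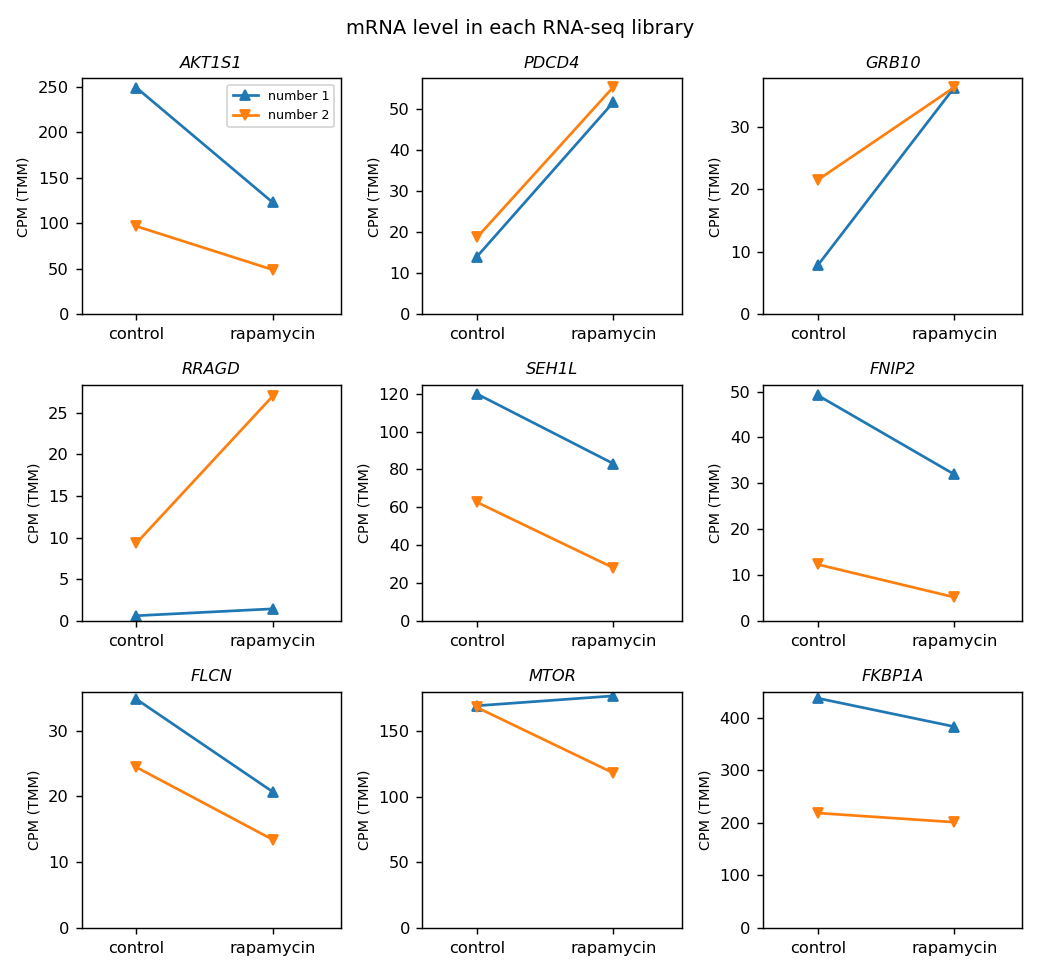
mRNA level (CPM, TMM-scaled, linear axis from 0) of 9 members in the control and rapamycin libraries, with a line joining the libraries of number 1 and those of number 2. *AKT1S1* falls along both lines from different levels, *PDCD4* and *GRB10* rise along both, and *MTOR* is at 169 and 168 CPM in the controls.

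The remaining mTOR complex subunits did not pass the threshold. *MTOR* itself was 177 and 118 CPM with rapamycin and 169 and 168 CPM in controls 1 and 2 (log2 fold change −0.22, standard error 0.26, adjusted p = 0.648). The rapamycin libraries lay on either side of the controls. *RPTOR*, the mTORC1 scaffold, was 93.8 and 75.6 CPM against 131 and 132 CPM, so both rapamycin libraries were below both controls, with a log2 fold change of −0.64 (standard error 0.25, adjusted p = 0.117). *RICTOR*, the mTORC2 scaffold, was 73.1 and 67.7 CPM against 81.0 and 53.2 CPM (log2 fold change 0.10, standard error 0.27, adjusted p = 0.862), and its groups overlapped.

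Of the 8 subunits, 5 were lower in both numbered pairs and 1 was higher. The lower ones besides *AKT1S1* and *RPTOR* were *MLST8*, which both complexes share (log2 fold change −0.31), and the mTORC2 subunits *MAPKAP1* (−0.33) and *PRR5* (−0.42). *DEPTOR*, an inhibitor found in both complexes, was the one that was higher in both pairs, at 0.999 and 3.89 CPM with rapamycin against 0.877 and 1.61 CPM. It held only 19 to 71 counts per library, and its log2 fold change of 0.79 had a standard error of 0.61.

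*FKBP1A*, the receptor of rapamycin, was 383 and 201 CPM with rapamycin and 438 and 219 CPM in controls 1 and 2. The number 1 libraries were higher than number 2 in both treatments, and the fitted log2 fold change was −0.15 (standard error 0.25) with an adjusted p of 0.758.

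Among the TSC complex and RHEB, 0 of 4 genes passed the test, and the subunits did not share a direction. *TSC1* was 36.2 and 30.0 CPM with rapamycin against 45.9 and 47.5 CPM, with no overlap between the groups (log2 fold change −0.50, adjusted p = 0.293). *TSC2*, the subunit that acts on RHEB, was 67.0 and 114 CPM against 41.4 and 104 CPM, higher in both pairs (0.41, adjusted p = 0.360). *TBC1D7*, the third subunit, had a log2 fold change of −0.21 and *RHEB* one of −0.05.

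The Rag GTPases and the Ragulator, which anchors them to the lysosome, also had 0 of 8 members called, with log2 fold changes from −0.39 (*LAMTOR5*) to 1.40 (*RRAGD*). *RRAGD*, a partner of RRAGA in the active Rag dimer, stood just outside the threshold (standard error 0.45, adjusted p = 0.0508). It was 1.47 and 27.0 CPM in rapamycin libraries 1 and 2 and 0.646 and 9.34 CPM in controls 1 and 2. The level was far higher in number 2, and within each number it was higher with rapamycin. The number 1 libraries held only 28 and 14 counts. Its log2 fold change was 1.47 with upper-quartile scaling (adjusted p = 0.0461) and 1.42 when at least 10 counts were required in every library (adjusted p = 0.0389). It missed the threshold under the other alternatives that kept the block, with adjusted p of 0.1312 from DESeq2, 0.0523 with DESeq2 size factors and 0.0525 with no filter on low counts, and without the block it was 0.9997 from edgeR. *RRAGC*, which takes the same place in the dimer, was 12.4 and 7.57 CPM against 14.7 and 8.66 CPM, with a log2 fold change of −0.22, and *RRAGA* had one of −0.07. Of the Ragulator genes, *LAMTOR1*, *LAMTOR3* and *LAMTOR5* were lower in both pairs (log2 fold changes −0.25, −0.34 and −0.39), while *LAMTOR2* (0.26) and *LAMTOR4* (0.20) were lower in number 1 and higher in number 2.

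GATOR1 (NPRL2, NPRL3, DEPDC5) switches the Rag GTPases off when amino acids are scarce, and GATOR2 (WDR24, WDR59, MIOS, SEH1L and SEC13) opposes it. None of the 7 measured members passed the test. *SEH1L*, which also serves in the nuclear pore, came closest at 83.0 and 28.1 CPM with rapamycin against 120 and 62.7 CPM in controls 1 and 2 (log2 fold change −0.84, standard error 0.27, adjusted p = 0.0532). It was lower in both numbers. Without a filter on low counts its adjusted p was 0.0301, while it was 0.0577 to 0.1146 under the other alternatives that kept the block and 0.9997 from edgeR without it. *NPRL2* was 16.8 and 12.4 CPM against 10.6 and 10.1 CPM, and both rapamycin libraries lay above both controls (0.48, adjusted p = 0.462). *WDR59* was also higher in both pairs (0.32), *WDR24* (−0.10) and *NPRL3* (−0.03) were slightly lower in both pairs, and *DEPDC5* (0.03 in number 1, −0.98 in number 2) and *MIOS* (0.12 and −0.69) were lower in number 2 only.

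FLCN and its partners FNIP1 and FNIP2 act on RRAGC and RRAGD and thereby let mTORC1 phosphorylate TFEB. All 3 were lower with rapamycin in both pairs, and none passed the threshold. *FLCN* was 20.7 and 13.4 CPM with rapamycin against 34.8 and 24.5 CPM in controls 1 and 2, with no overlap between the groups (log2 fold change −0.81, standard error 0.32, adjusted p = 0.114). *FNIP1* was 21.8 and 19.5 CPM against 34.1 and 28.5 CPM, again without overlap (−0.60, adjusted p = 0.242). *FNIP2* was 32.0 and 5.21 CPM against 49.2 and 12.3 CPM (−0.92, standard error 0.33, adjusted p = 0.0783). Its number 1 libraries stood above both number 2 libraries, so its groups overlapped.

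The amino acid sensors did not share a direction. *SESN1*, a leucine sensor that binds GATOR2, was 4.31 and 9.71 CPM against 6.70 and 10.98 CPM (log2 fold change −0.40). Its relative *SESN3* was 0.947 and 37.6 CPM with rapamycin and 1.06 and 28.8 CPM in controls (0.18), so its level went with the number. *SLC38A9*, the lysosomal arginine sensor, was 20.8 and 11.1 CPM against 14.8 and 16.7 CPM, higher with rapamycin in number 1 and lower in number 2 (−0.04).

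None of the 5 upstream kinases passed the test. *PIK3CA* (0.26) was higher in both pairs, *PIK3CB* (−0.29), *PDPK1* (−0.49) and *AKT1* (−0.11) were lower in both, and *AKT2* (−0.10) was lower in number 2 only. *PDPK1* was 59.3 and 69.8 CPM with rapamycin against 67.9 and 119 CPM in controls 1 and 2. It has a near-identical pseudogene, so the split of its reads is uncertain. Downstream, the S6 kinases *RPS6KB1* (32.9 and 32.1 CPM against 37.3 and 46.5 CPM, log2 fold change −0.36) and *RPS6KB2* (−0.23) were lower in both pairs, and so was *EEF2K*, the kinase that halts elongation (−0.10). *SGK1*, a target of mTORC2, was 61.1 and 27.8 CPM with rapamycin and 39.2 and 40.6 CPM in controls. The controls were alike and the rapamycin libraries lay on either side of them, with a log2 difference of 0.64 in number 1 and −0.54 in number 2.

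**Figure D2:**
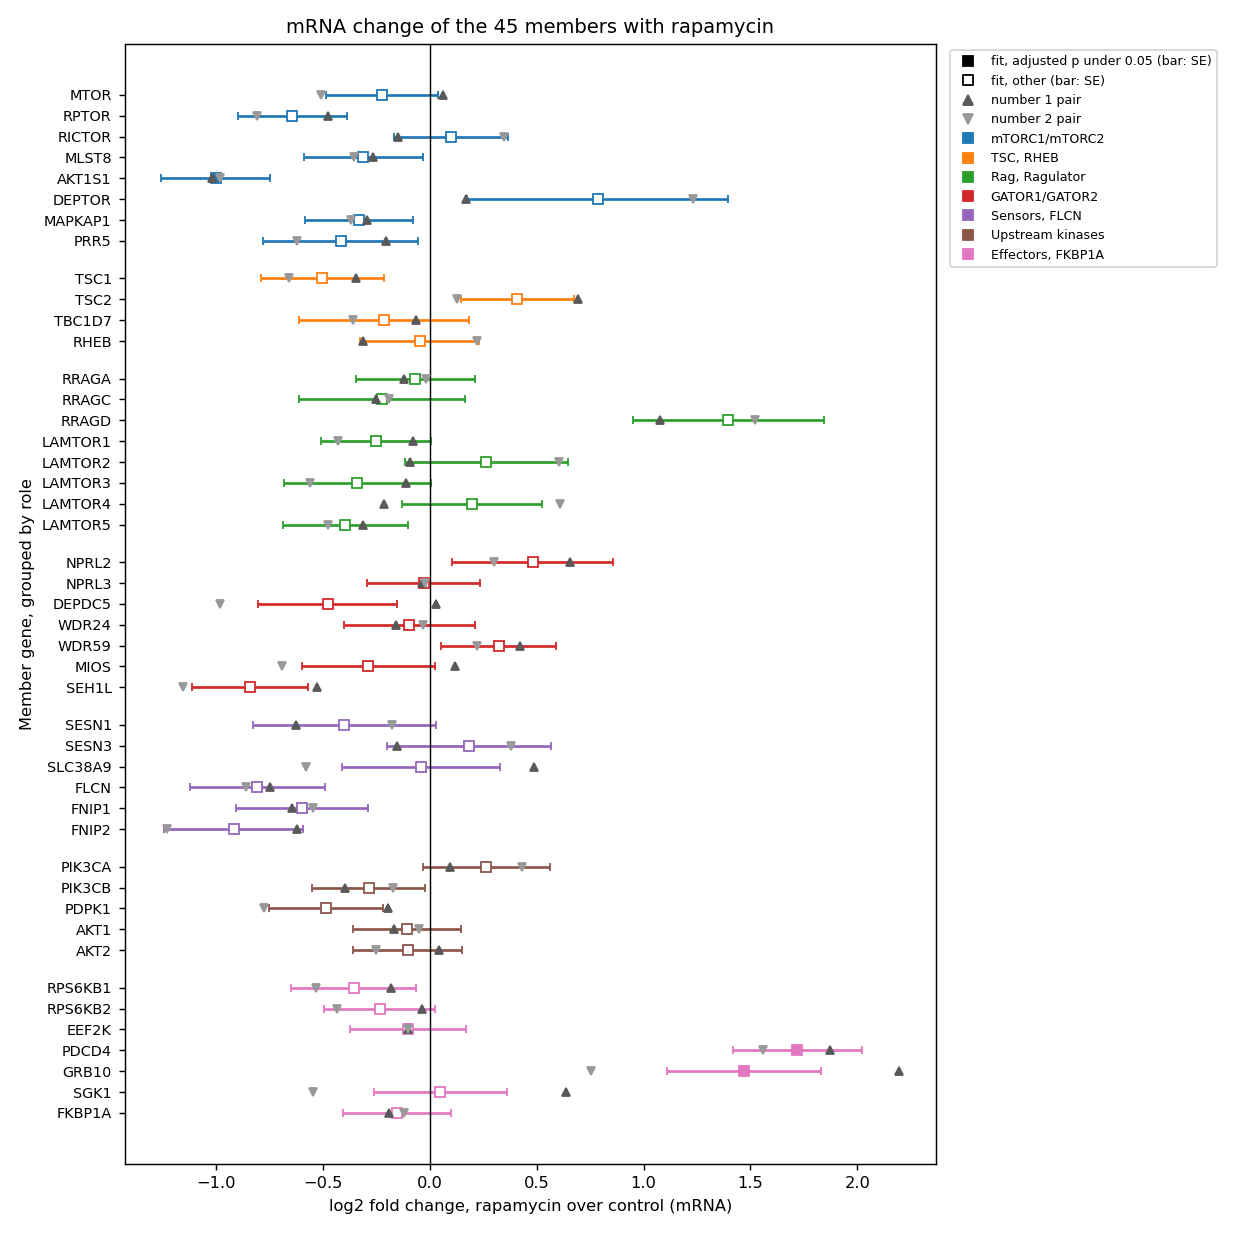
log2 fold change of each member's mRNA, rapamycin over control, grouped and coloured by role (squares, fitted value with its standard error, filled where the adjusted p was under 0.05), with the difference within number 1 (dark upward triangles) and number 2 (light downward triangles). *PDCD4*, *GRB10* and *AKT1S1* carry filled squares (that of *AKT1S1* lies partly under its triangles), and most open squares lie left of 0.

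Counted together, 26 of 45 members (57.8%) were lower with rapamycin in both numbered pairs, where 31.8% of all tested genes were, and 8 members (17.8%) were higher in both, where 34.6% of all tested genes were. The other 11 went in opposite directions. With upper-quartile scaling, tried after seeing the data, 19 members (42.2%) were lower in both pairs and 9 (20.0%) higher, against 27.5% and 40.9% of all tested genes. The median log2 fold change was −0.21 over the members and 0.05 over all tested genes. Both rapamycin libraries lay below both controls for 7 members (15.6%, against 16.5% of all tested genes) and above both for 3 (6.67%, against 15.0%). The 7 were *RPTOR*, *PRR5*, *TSC1*, *LAMTOR5*, *FLCN*, *FNIP1* and *RPS6KB1*, and the 3 were *NPRL2*, *PDCD4* and *GRB10*. The members were chosen with results of these data known, and these shares are a description.

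The difference between numbers was larger than that between treatments for several members. In both treatments, 3 members were over 2-fold higher in number 2 (6.67%, against 11.2% of all tested genes) and 2 were over 2-fold higher in number 1 (4.44%, against 15.4%). *SESN3* was higher in number 2 by 4.64 on the log2 scale in controls and by 5.17 with rapamycin, *RRAGD* by 3.67 and 4.11, and *EEF2K* by 1.51 and 1.52. *FNIP2* was lower in number 2, with a log2 difference of −1.99 in controls and −2.59 with rapamycin, and so was *AKT1S1*, with −1.36 and −1.33. *GRB10* differed between numbers by 1.44 in controls and by 0.001 with rapamycin. Each of these differences rests on 1 library a side, and no test was made.

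**Figure D3:**
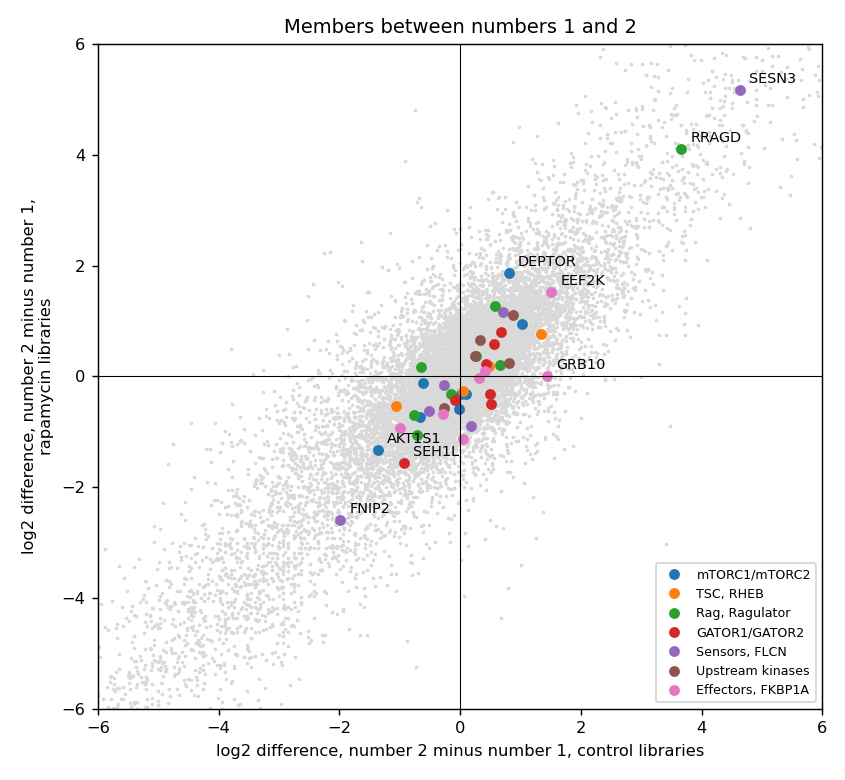
log2 difference in mRNA between numbers 2 and 1 in the control libraries (horizontal axis) and in the rapamycin libraries (vertical axis) for the members, coloured by role, over all tested genes in grey (genes beyond ±6 on either axis are not drawn). *SESN3* and *RRAGD* lie far to the upper right and *FNIP2* to the lower left, while *GRB10* lies near 0 on the rapamycin axis only.

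Of 44 other genes of the pathway that are not members, 42 were tested, and 6 rose and 0 fell with rapamycin, where 4.65% and 3.50% of all tested genes did. *DDIT4*, an mTORC1 inhibitor that works through the TSC complex, was 272 and 1465 CPM with rapamycin against 27.3 and 348 CPM in controls 1 and 2 (log2 fold change 2.69, standard error 0.31, adjusted p = 6.65e-05). *ULK1*, the kinase that starts autophagy and that mTORC1 holds back, was 213 and 137 CPM against 44.5 and 53.1 CPM (1.81, standard error 0.28, adjusted p = 0.000485). Within each number both genes were higher with rapamycin. The others were *PIK3CD* (1.41, adjusted p = 0.0191), the insulin signalling genes *IRS2* (1.26, adjusted p = 0.0308) and *INSR* (1.13, adjusted p = 0.0253), and *EIF4EBP1*, a translation repressor that mTORC1 phosphorylates (0.93, adjusted p = 0.0249). *PIK3CD* was 43.9 and 19.2 CPM with rapamycin against 26.3 and 4.39 CPM, and *IRS2* 62.5 and 24.4 against 42.3 and 6.04 CPM. The groups of *DDIT4*, *PIK3CD* and *IRS2* overlapped. Without the block, edgeR called 0 of these genes, and the list was chosen with earlier results known. *SESN2*, the third sestrin, was 156 and 37.5 CPM with rapamycin against 41.8 and 56.2 CPM, higher in number 1 and lower in number 2.

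The m6A peaks were taken from the authors' lists, 1 for each pair of pulled-down and input libraries, with the fold enrichment over input that the authors computed. Each cell line and treatment has 1 list, so no value has a replicate and none of the differences was tested. A list holds the peaks that were called, so a gene without a peak may carry m6A that was not detectable at a depth that is unknown here. To compare lists, each peak was also given its percentile of fold enrichment among all peaks of its own list. Coordinates are on hg38, the build named in the submitters' processing notes.

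The 4 lists held 46 peaks on 21 of the 45 members (35.4% of all tested genes had a peak in any list), and 24 members had none. Of the 3 members whose mRNA passed the test, *GRB10* had a peak and *PDCD4* and *AKT1S1* had none. In HSC3, 9 members (20.0%) had a peak without rapamycin and 14 (31.1%) with it, against 17.6% and 17.5% of all tested genes. In CAL33, 13 (28.9%) had one without rapamycin and 4 (8.89%) with it, against 16.1% and 14.2%. The 95% Wilson intervals of the members' shares, which cover counting error only, were 10.9% to 33.8% and 19.5% to 45.7% in HSC3, and 17.7% to 43.4% and 3.51% to 20.7% in CAL33. The lists differ in length too, from 3952 peaks in HSC3 rapamycin cells to 3079 in CAL33 rapamycin cells. By the authors' annotation, 24 of the 46 peaks (52.2%, 38.1% to 65.9%) lay in a 3′ UTR, where 36.3% of all 14586 peaks lay, 17 in coding sequence (37.0%, against 41.6%) and 5 in other exons (10.9%, against 18.7%).

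*RRAGC* was the one member with a peak in all 4 lists, and its 5 peaks all lay in the 3′ UTR, on the minus strand of chromosome 1. In HSC3 control cells it spanned 38839273 to 38839452 (fold enrichment 527, percentile 97.8) and in CAL33 control cells 38839124 to 38839303 (175, percentile 82.9), an overlap of 31 bp. In HSC3 rapamycin cells 1 peak ran from 38838974 to 38839243 (161, percentile 91.1) and another from 38838586 to 38838825 (21, percentile 36.4). The only CAL33 rapamycin peak had exactly the bounds of that second peak (14.7, percentile 26.9). The rapamycin peaks therefore overlapped no control peak of the same line. Across lines, the HSC3 rapamycin peak from 38838974 shared 120 bp with the CAL33 control peak. The stretch at 38838586 was listed with rapamycin in both lines and in neither control.

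In HSC3, 3 members had overlapping peaks in both treatments. *RRAGA* had 1 coding peak with the same bounds in both treatments (chromosome 9, 19049785 to 19050024, plus strand), with a fold enrichment of 16.8 in control and 172 in rapamycin cells, at percentiles 32.9 and 92.1. *FLCN* had 1 peak in its 3′ UTR in both HSC3 lists (chromosome 17, 17213289 to 17213529 in control and 17213259 to 17213559 in rapamycin cells, minus strand), at 118 and 170 (percentiles 77.3 and 91.8). *FNIP1* had coding peaks on chromosome 5, minus strand, that overlapped by 181 bp between the HSC3 lists, at 2.92 in control cells (131671508 to 131671718) and 82.0 in rapamycin cells (131671538 to 131672137), or percentiles 2.94 and 75.0. All 3 overlapping peaks stood higher in the rapamycin list, but the share of all HSC3 pairs that did so is not given here. Those of *FNIP1* and *RRAGA* started low in the control list.

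These movements were set beside those of all genes. HSC3 had 1219 overlapping peak pairs across the treatments, of which 68.9% moved at least as far in percentile, in either direction, as *FLCN*, 13.0% as far as *RRAGA* and 5.17% as far as *FNIP1*. Without replicates, treatment and library-to-library spread cannot be told apart in these shares.

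*GRB10* was the one member with overlapping peaks in both CAL33 lists. The 3′ UTR peak on chromosome 7, minus strand, ran from 50592609 to 50592818 with a fold enrichment of 89.4 (percentile 66.7) in control cells and from 50592639 to 50592788 with 6.03 (percentile 9.29) in rapamycin cells. Of 1035 such pairs in CAL33, 15.7% moved as far. The mRNA of *GRB10* was higher with rapamycin within both numbers, and whether the enrichment moved with it was not tested.

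*MIOS* had coding peaks on chromosome 7 in 3 lists at 3 separate places, from 7573019 to 7573199 in HSC3 control cells (fold enrichment 269), from 7573319 to 7573529 in HSC3 rapamycin cells (18.5) and from 7572510 to 7572720 in CAL33 control cells (132). *AKT2* had 3′ UTR peaks on chromosome 19 in 3 lists. The strongest, at 336 (percentile 97.4), lay from 40232982 to 40233192 in CAL33 rapamycin cells, and the HSC3 control peak at 112 (percentile 76.2) lay from 40233282 to 40233462. *MTOR* had a single peak, in its 3′ UTR in HSC3 control cells (chromosome 1, 11107105 to 11107315, fold enrichment 68.7, percentile 66.2). *RPS6KB1* had a 3′ UTR peak in both control lists, at 82.2 and 54.3 in HSC3 and CAL33, and these met in 1 bp. *PIK3CA* had a 3′ UTR peak in both rapamycin lists, at 93.0 and 16.1, which overlapped by 241 bp, and the CAL33 one had a false discovery rate of 0.142.

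Several members were listed under opposite treatments in the cell lines. *RPTOR*, *RICTOR*, *MLST8*, *TSC1* and *FNIP2* had a peak with rapamycin but not without it in HSC3, and without rapamycin but not with it in CAL33. These are 5 of 45 members, where 1.59% of all tested genes had that listing, and 0 members had the reverse, where 1.12% did. In HSC3, 9 members were listed only with rapamycin, as were 8.79% of all tested genes. In CAL33, 10 members were listed only without it, as were 9.02%. The count of members in both listings was not tested. The *FNIP2* coding peaks were the strongest, at 150 in HSC3 rapamycin cells (chromosome 4, 158869118 to 158869358) and 145 in CAL33 control cells (158869148 to 158869328), and overlapped by 181 bp. Those of *MLST8* (13.0 and 59.6) overlapped by 210 bp and those of *RICTOR* (11.1 and 51.1) by 91 bp, while those of *RPTOR* (13.7 and 17) and *TSC1* (16.4 and 14.3) lay apart. The *RPTOR* peak of CAL33 and the *TSC1* peak of HSC3 had false discovery rates of 0.204 and 0.0912.

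**Figure D4:**
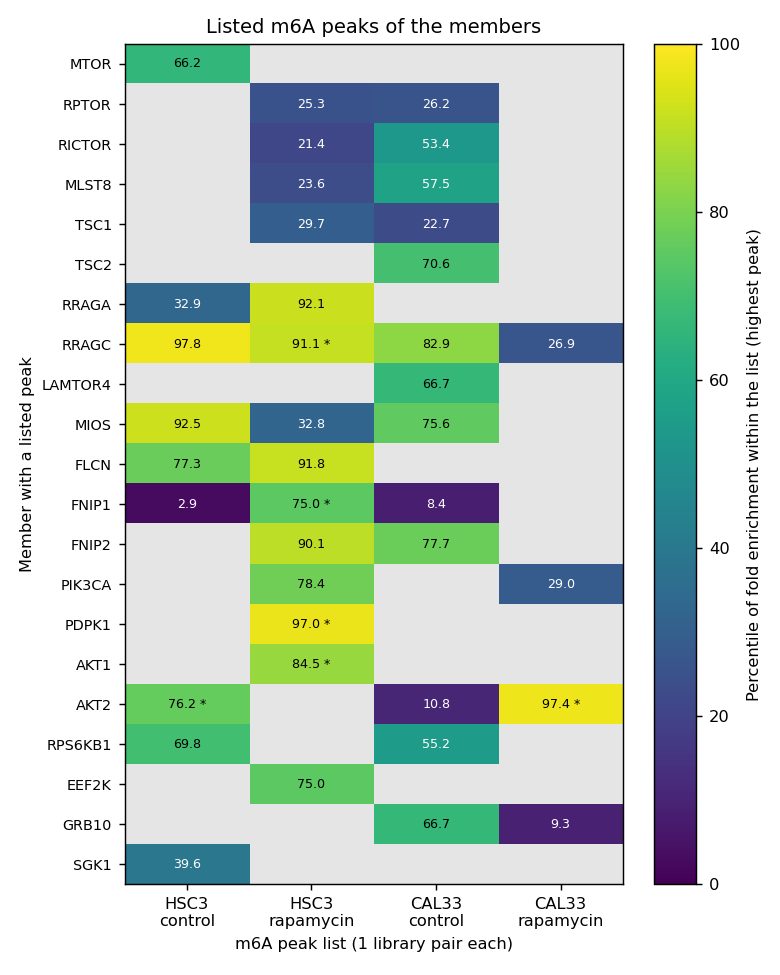
Percentile of fold enrichment within its own list (colour and number, 0 to 100) of the highest m6A peak of each of the 21 members with a listed peak, in the 4 lists (an asterisk marks more than 1 peak, grey marks no listed peak). *RRAGC* is filled in all 4 columns, and the CAL33 rapamycin column is filled for 4 members only.

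Most listed peaks did not recur between treatments, among the members and among all genes. In HSC3, 3 of 18 rapamycin peaks of members (16.7%, 95% Wilson interval 5.84% to 39.2%) overlapped a control peak by at least 1 bp, against 28.4% of all HSC3 rapamycin peaks. In CAL33, 1 of 5 (20.0%, 3.62% to 62.4%) did, against 29.9%. Both intervals hold the background share. They treat peaks of the same gene as independent and are wide, so they cannot decide whether the shares differ. The weaker peaks of *FNIP1* were coding peaks at 12.8 in HSC3 rapamycin cells and 5.67 in CAL33 control cells, which met in 1 bp. Those of *AKT2* were 3′ UTR peaks at 11.2 in HSC3 control and 6.81 in CAL33 control cells, which overlapped by 121 bp, and a coding peak at 16.1 in CAL33 rapamycin cells (false discovery rate 0.142). The remaining members had peaks in 1 list only, namely *PDPK1* (3′ UTR, 309, percentile 97.0, and a second at 10.9 with a false discovery rate of 0.501) and *AKT1* (115 and 5.03 in exons) in HSC3 rapamycin cells, *EEF2K* (3′ UTR, 82.0) in the same list, *SGK1* (exon, 22.4, false discovery rate 0.0617) in HSC3 control cells, and *TSC2* (coding, 106) and *LAMTOR4* (coding, 89.4) in CAL33 control cells.

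The 4 members with the promoter element shown above took different directions. Their mRNA log2 fold changes were −0.60 for *FNIP1*, −0.22 for *RRAGC*, 0.20 for *LAMTOR4* and 0.41 for *TSC2*, and none passed the threshold. *TFEB* itself was 6.36 and 16.2 CPM with rapamycin against 3.83 and 9.59 CPM in controls 1 and 2 (log2 fold change 0.74, standard error 0.41, adjusted p = 0.279).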

How the data were processed

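The deposited RNA-seq values are raw counts of reads per Ensembl gene, without normalization. The submitters' processing notes name cutadapt 2.5, HISAT2 2.1.0, featureCounts 1.6.3, HOMER 4.10.4 and hg38, with no role for each. The deposited MeRIP-seq values are peak lists, 1 per pair of pulled-down and input libraries, with a fold enrichment (a ratio to input), a p-value score and its log10, and a log10 false discovery rate. The peak caller's settings and the read depth are not given in the sources used here.

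The test of counts was edgeR 4.0.16 in R 4.3.3 (filterByExpr, TMM, robust quasi-likelihood test, Benjamini-Hochberg adjustment at 0.05), with the replicate number as a block, which leaves 1 residual degree of freedom before moderation across genes. The pairing rests on the numbering of the titles, on the number marking a cell line in MeRIP-seq, and on the difference between numbers 2 and 1, which correlated between treatments (r = 0.901 across genes). The common dispersion was 0.061 with the block and 0.636 without it. Standard errors were derived from the fold change and its F statistic, and log2 differences within a number from log2 CPM with a prior count of 2. The scripts were tested on simulated data. There the blocked fit called 16 of 97 genes changed 2-fold and 69 of 103 changed 4-fold, with 5 false calls. With 0 genes changed it made 2 false calls. Peaks overlapped when they shared at least 1 bp over their blocks on the same strand (Python 3.11.15, scipy 1.17.1). Alternatives were DESeq2 1.42.0, other scalings and filters, no block, each library left out, and stricter peak rules.

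The members and lists were chosen with earlier results of these data known. Members called were given full statistics, as were *MTOR*, *RPTOR*, *RICTOR* and *FKBP1A*, and the others were described by role. Members near the threshold were added after their values were seen. Peak sequences were not used here.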

Additional observations from a re-analysis of the deposited data

Results flagged for a closer look

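The listing of m6A peaks went opposite ways in the cell lines for 5 members, *RPTOR*, *RICTOR*, *MLST8*, *TSC1* and *FNIP2*, which had a listed peak only with rapamycin in HSC3 and only without it in CAL33. The *RPTOR* peak of CAL33 and the *TSC1* peak of HSC3 had false discovery rates of 0.204 and 0.0912. The peaks of *RPTOR* and of *TSC1* did not overlap between the lines. Those of *FNIP2*, *MLST8* and *RICTOR* did, by 181, 210 and 91 bp. Of all members, 9 were listed only with rapamycin in HSC3, as were 8.79% of all tested genes. In CAL33, 10 were listed only without it, as were 9.02% of all tested genes. The opposite listing of the 5 members was shared by 1.59% of all tested genes. A missing listing does not show that m6A was absent. The difference was not tested, because there is 1 MeRIP-seq list for each line and treatment. The lists of HSC3 rapamycin and CAL33 control cells overlapped by 28.2% on average over both lists. The share was 28.3% for the HSC3 treatments, 27.5% for the CAL33 treatments and 25.0% for HSC3 control with CAL33 rapamycin. Between the lines it was 27.1% for the control lists and 26.0% for the rapamycin lists. The CAL33 rapamycin list was the shortest, at 3079 peaks, and its part in the listing was not tested.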

How the results depend on the processing

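*RRAGD* passed the threshold under 2 alternatives (upper-quartile scaling and at least 10 counts in every library) and *SEH1L* under 1 (no filter on low counts), and neither passed under any other with an adjusted p, which was 0.1312 and 0.1146 from DESeq2 with the block (DESeq2 without the block gave none for *RRAGD*). The number of members called was 3, and it was 3 or 4 under the alternatives that kept the replicate block. Without the block it was 0 with edgeR and 1 with DESeq2. For the other pathway genes the count of 6 became 0 and 1 in the same fits, and 4 with DESeq2 and the block, and for all genes the count of 1290 became 0 and 42, and 818 with DESeq2 and the block. The log2 fold changes themselves moved little without the block, to −1.01 for *AKT1S1*, 1.71 for *PDCD4* and 1.31 for *GRB10*, while their standard errors were 0.72, 0.34 and 0.60, and their adjusted p was 0.9997 from edgeR. The larger dispersion without the block holds the difference between numbers 1 and 2.

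Of 315 member values under the alternatives with a test, 301 kept their direction and side of the threshold, and 6 near 0 changed sign, with upper-quartile scaling *RHEB* (0.0273), *RRAGA* (0.00735), *NPRL3* (0.0457) and *SLC38A9* (0.0322), and without the block *SLC38A9* (0.0202 with edgeR, 0.0401 with DESeq2). Upper-quartile scaling shifted the median of all genes by 0.0748. Leaving out a library leaves 1 numbered pair and no test. The value then ranged from −1.02 to −0.98 for *AKT1S1*, from 1.56 to 1.88 for *PDCD4* and from 0.756 to 2.21 for *GRB10*. Each such value restates the difference within the pair that is left, so it is no separate check of direction.

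The share of CAL33 rapamycin peaks of members with a control counterpart rose from 20.0% to 75.0% (3 of 4) when genes were compared in place of peaks, and stayed within its interval under the other rules. The numbers of members with a peak stayed within 1.5 times under stricter thresholds. Dividing fold enrichments by the median of their list changed no direction. The depth of the m6A libraries is unknown, and with 2 RNA-seq libraries a group and 1 residual degree of freedom a change that was not called may still be present.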
